A study of Mus musculus with 8 samples.

Results

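Tibialis anterior muscle of mice with cachexia from the 4T1 breast cancer line was set against that of mice with cachexia from the C26m2 colon cancer line. The 4 libraries of these 2 groups, out of 8 in all, gave 1 deposited FPKM value per gene and group (fragments per kilobase, a level per length of transcript and per depth of library). Genes were taken when both of the authors' tables listed them and when at least 1 cachectic group reached 1 FPKM. These were 2735 of the 6028 genes listed in either table. Each of the authors' deposited tables lists only genes that they called changed from healthy to cachectic muscle (q-value of 0.05 or less), so "rose" and "fell" are those calls, and a gene in 1 table alone cannot be compared. For each gene the log2 ratio of 4T1 over C26m2 cachectic muscle was computed and the median log2 ratio of all compared genes, 0.08, was subtracted, because the 2 tables came from separate runs of the authors' software. A gene was counted as higher or lower in 4T1 when its centred ratio was 2-fold or more.

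The 4T1 mice were of the Balb/c strain and the C26m2 mice were CD2F1. Healthy mice of each strain, matched in age, made up the other 4 libraries, and all 4 groups were aged 12 to 14 weeks. Luciferase-labelled tumours were removed 2 to 3 weeks after the cancer cells were injected, and cachectic mice were killed 5 weeks after injection, once imaging had shown metastases. No injection or surgery is recorded for healthy mice, and the labels do not say whether the 2 libraries of a group came from separate animals. Strain, tumour line and run of the software change together between the cachectic groups, so their parts in any difference cannot be told apart.

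Cancer cachexia is a wasting of muscle and fat driven by tumour products, inflammatory cytokines and glucocorticoids. Wasting fibres raise ubiquitin ligases, proteasome subunits and autophagy genes, which break down the contractile proteins, and lower many genes of contraction and glycolysis. The tibialis anterior is a fast muscle of the shin, rich in fast-twitch glycolytic fibres, and it also holds vessels, nerve branches, connective tissue and blood cells.

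Levels in the 2 cachectic groups were close for most genes. Of the 2735 genes, 1963 (71.8%) lay within 1.5-fold of the median ratio and 2436 (89.1%) lay within 2-fold. Across genes, which are not independent replicates, Pearson's r of log2 FPKM was 0.954. A difference of 2-fold or more was seen in 299 genes. Of these, 130 were higher in 4T1 muscle, 4.75% of all compared, and 169 were lower, 6.18%. At 4-fold or more there were 33 higher and 21 lower genes. In bulk muscle, fewer cells of a type and less RNA in each cell give the same lower value.

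With 1 deposited value per group, a ratio between the cachectic groups has no replicate spread and no test. A bound on its error within the models was taken from the authors' p-values. Each p-value implies a standard error for the change from healthy to cachectic muscle within a model, and the standard errors of both models were combined. The resulting 95% interval, called the widest interval here, also holds the error of the healthy groups, and it is widest for genes with large changes because the authors' p-values stop at 5e-05. It holds no error from the separate runs or their scaling, and it is not corrected for the number of genes. Only genes with p-values small enough to be listed have one. It left out 0 for 48 of the 130 higher genes, 61 of the 169 lower genes and 125 of all compared genes (4.57%).

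**Figure D1:**
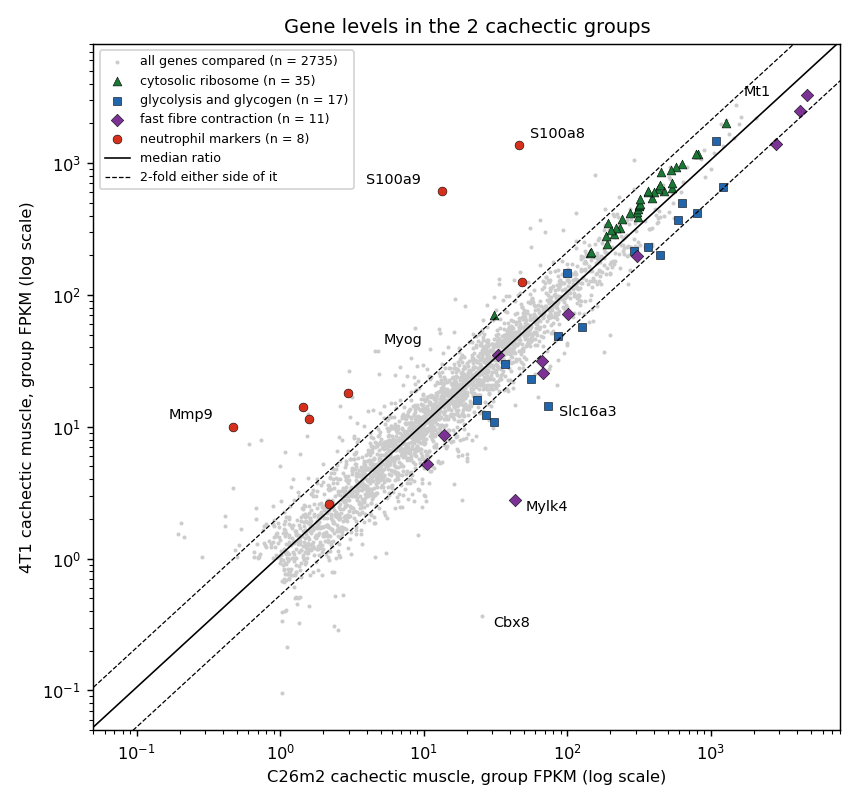
Group FPKM in 4T1 cachectic muscle (vertical axis) against C26m2 cachectic muscle (horizontal axis), both on log scales, 1 grey point per gene compared (n = 2735). Coloured symbols are members of 4 gene lists, the solid line is the median ratio and the dashed lines lie 2-fold either side of it; 7 of the 8 neutrophil markers lie above the band, ribosomal genes above the median line, and most glycolytic and fast fibre genes below it.

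Among genes called changed in both models, the changes from healthy muscle were larger in 4T1 for most that moved the same way. Among the 1730 compared genes that rose in both models, the fold was larger in 4T1 for 1190 (68.8%), and the median fold was 2.75 in 4T1 and 2.49 in C26m2. Among the 982 genes that fell in both, the fall was larger in 4T1 for 795 (81.0%), with median falls of 3.14-fold and 2.32-fold. Only genes called in both models enter, and a model with larger errors needs a larger change for a call. The part of that selection in these shares and folds was not tested. Between the cachectic groups themselves, genes that fell in both had a median centred log2 ratio of -0.38, and genes that rose in both had one of 0.16. Of the genes 2-fold lower in 4T1, 141 had fallen in both models, and of those 2-fold higher, 111 had risen in both.

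Most genes that stood apart in cachectic muscle did not stand apart in healthy muscle of the same strains. Of the 130 genes higher in 4T1, 22 (16.9%) were also 2-fold higher in healthy Balb/c than in healthy CD2F1 muscle, against 2.41% of all compared genes. Of the 169 lower genes, 16 (9.47%) were also 2-fold lower in healthy muscle, against 2.16% of all. Another 7 higher and 4 lower genes differed by 2-fold the opposite way in healthy muscle, and 101 and 149 lay within 2-fold there. The spread of the centred log2 ratio over genes was 0.698 (SD, n = 2735 genes) in cachectic and 0.491 in healthy muscle. The cachectic and the healthy ratios share no library, and over the compared genes Pearson's r between them was 0.128 and Spearman's rho 0.156, given as a description.

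**Figure D2:**
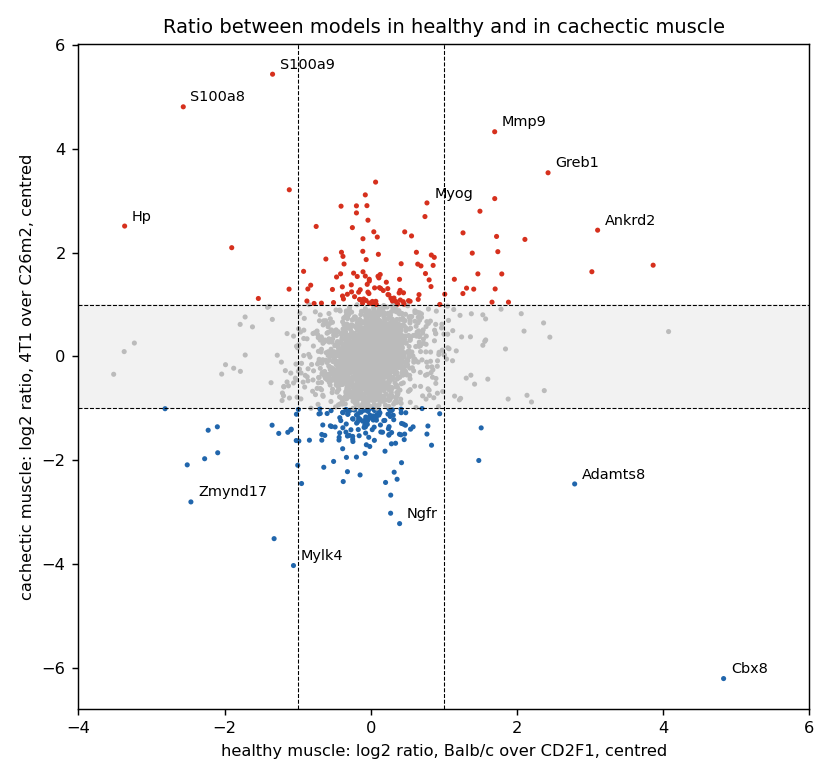
Centred log2 ratio between models in cachectic muscle (vertical axis, 4T1 over C26m2) against healthy muscle (horizontal axis, Balb/c over CD2F1), 1 point per gene (n = 2735). Red points are 2-fold or more higher and blue points 2-fold or more lower in 4T1 cachectic muscle; most of them lie between the vertical dashed lines, within 2-fold in healthy muscle.

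The genes furthest above the median ratio were the calprotectin subunits S100a9 and S100a8, calcium-binding proteins that neutrophils hold in large amounts. S100a9 stood at 0.860 FPKM in healthy Balb/c, 615 in 4T1 cachectic, 2.06 in healthy CD2F1 and 13.4 in C26m2 cachectic muscle. It rose in both models and ended 43.3-fold higher in 4T1, with a centred log2 ratio of 5.44 and a widest interval of 0.67 to 10.20. S100a8 had 0.666, 1367, 3.71 and 46.2 FPKM in the same order and was 28.0-fold higher in 4T1. Its widest interval, -3.78 to 13.40, holds 0. In healthy muscle both genes were lower in Balb/c than in CD2F1, with centred log2 ratios of -1.34 for S100a9 and -2.56 for S100a8, so the order of the strains turned between healthy and cachectic muscle.

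The promoters of this pair are shown because the subunits pair as 1 protein and moved together. They run from 250 bases before to 50 bases after the start site and come from the RefSeq annotation of GRCm38.p6, matched by symbol. S100a8 lies at chr3:90668821-90669120 on the plus strand and S100a9 at chr3:90695672-90695971 on the minus strand. Capitals mark TATAAA and CANNTG, the E-box, searched on both strands with overlaps allowed.
S100a8: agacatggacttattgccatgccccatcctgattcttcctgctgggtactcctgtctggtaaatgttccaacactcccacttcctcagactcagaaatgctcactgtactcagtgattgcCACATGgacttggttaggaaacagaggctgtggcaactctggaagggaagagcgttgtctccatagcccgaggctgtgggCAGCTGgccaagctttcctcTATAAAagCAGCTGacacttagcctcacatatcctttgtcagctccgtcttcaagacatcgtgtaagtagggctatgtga
S100a9: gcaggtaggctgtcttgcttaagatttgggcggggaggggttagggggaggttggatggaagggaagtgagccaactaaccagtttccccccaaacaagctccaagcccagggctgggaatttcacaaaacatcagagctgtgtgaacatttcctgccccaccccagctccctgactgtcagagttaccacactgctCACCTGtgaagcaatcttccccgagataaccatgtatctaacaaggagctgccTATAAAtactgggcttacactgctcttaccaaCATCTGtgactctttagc
Each holds 1 TATAAA, and S100a8 holds 3 E-boxes and S100a9 holds 2. TATAAA was found in 13.6% and CANNTG in 72.3% of all 32851 promoters of that length, and a match of letters describes the sequence only.

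Other neutrophil genes were also higher in 4T1 cachectic muscle. Of 40 neutrophil markers, 8 could be compared, and 7 of them were 2-fold or more higher, beside 4.75% of all compared genes. This and the other lists were chosen with earlier results of these data known, so their shares describe the members and test nothing. Hp, with a healthy ratio of -3.37, is among the 7 and is also on the liver list. Their median centred log2 ratio was 2.99 in cachectic and -1.12 in healthy muscle, and their summed level was 2163 FPKM in 4T1 and 116 in C26m2 muscle. Most of that sum is S100a8 and S100a9. Mmp9, a gelatinase stored in neutrophil granules, had 0.312, 10.02, 0.0906 and 0.473 FPKM in healthy Balb/c, 4T1, healthy CD2F1 and C26m2 muscle. It was 20.1-fold higher in 4T1 (widest interval 1.29 to 7.36), and it passed the 1 FPKM limit through the 4T1 group alone. Its healthy ratio was also above 0, at 1.70.

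Il1r2, the decoy receptor of interleukin-1, stood at 0.181, 14.0, 0.370 and 1.43 FPKM and was 9.26-fold higher in 4T1. Csf3r, the receptor for the neutrophil growth factor G-CSF, went from 0.275 to 11.4 FPKM in Balb/c and from 0.297 to 1.59 in CD2F1. The widest intervals of both, -0.85 to 7.27 and -0.10 to 5.63, hold 0. Lcn2, the siderophore-binding lipocalin of neutrophils and of the acute phase, reached 125 FPKM in 4T1 and 48.1 in C26m2 muscle, a 2.46-fold difference. Cd300lf, an inhibitory receptor of myeloid cells, was 10.3-fold higher in 4T1, at 7.92 against 0.732 FPKM. Its widest interval, -1.31 to 8.03, holds 0, and it passed the 1 FPKM limit through the 4T1 group alone.

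Another 6 neutrophil markers were listed in the 4T1 table alone and have no C26m2 value here. Each rose: the receptor Cxcr2 from 0.0189 to 6.22 FPKM, the peptidoglycan-binding protein Pglyrp1 from 0.462 to 17.8, Slfn4 from 0.164 to 14.1 and the histidine decarboxylase Hdc from 0.482 to 4.45. Il1b, the cytokine interleukin-1 beta, reached 1.42 FPKM. Alox5ap was listed in the C26m2 table alone and fell from 26.2 to 2.63 FPKM. Several of these genes are also expressed by other myeloid cells, and S100a8, S100a9, Lcn2 and Hp also respond to inflammation in other cells.

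Macrophage genes did not move as 1 block. Of 32 markers, 5 could be compared, 3 of them higher and 1 lower by 2-fold, beside 4.75% and 6.18% of all compared genes. Cd68, a lysosomal protein of macrophages, had 2.64, 51.8, 3.24 and 12.9 FPKM in healthy Balb/c, 4T1, healthy CD2F1 and C26m2 muscle, and was 3.80-fold higher in 4T1. Gpnmb, a glycoprotein of phagocytes, was 2.99-fold higher, at 24.1 against 7.64 FPKM, and the lectin Lgals3 reached 40.2 against 14.7 FPKM. C1qc, a complement subunit made by resident macrophages, fell in both models to 2.02 and 1.90 FPKM. Cbr2 was 2.68-fold lower in 4T1, with a healthy ratio of -2.22 on the same side. The widest intervals of all 5 hold 0. The 6 markers in the 4T1 table alone rose, among them Tyrobp to 16.6 and Itgam to 6.46 FPKM. The 7 in the C26m2 table alone, among them Lyz2, C1qa and Csf1r, fell. With the 1 FPKM limit dropped, the list's median moved from 1.37 to 0.12.

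Of 22 red cell markers 4 could be compared, and the 3 haemoglobin genes among them lay above the median ratio. Hbb-b1 had 48.6 and 254 FPKM in healthy and 4T1 cachectic Balb/c muscle, and 43.6 and 115 FPKM in healthy and C26m2 cachectic CD2F1 muscle, and was 2.09-fold higher in 4T1. Hba-a2 was 3.76-fold higher (widest interval 0.60 to 3.22) and Hba-a1 1.42-fold higher. The genes of each chain have near-identical copies whose reads can be split between them, so each single value is uncertain. The other member, Bpgm, the red cell enzyme that makes bisphosphoglycerate, lay on the other side: it fell from 62.4 to 5.77 FPKM in Balb/c and from 56.7 to 7.76 in CD2F1 muscle, a centred log2 ratio of -0.51. Of 4 markers in the 4T1 table alone 3 rose and Fech, the last enzyme of haem synthesis, fell, and Car2, a carbonic anhydrase, fell in the C26m2 table alone. The part of blood content in the neutrophil difference was not tested.

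**Figure D3:**
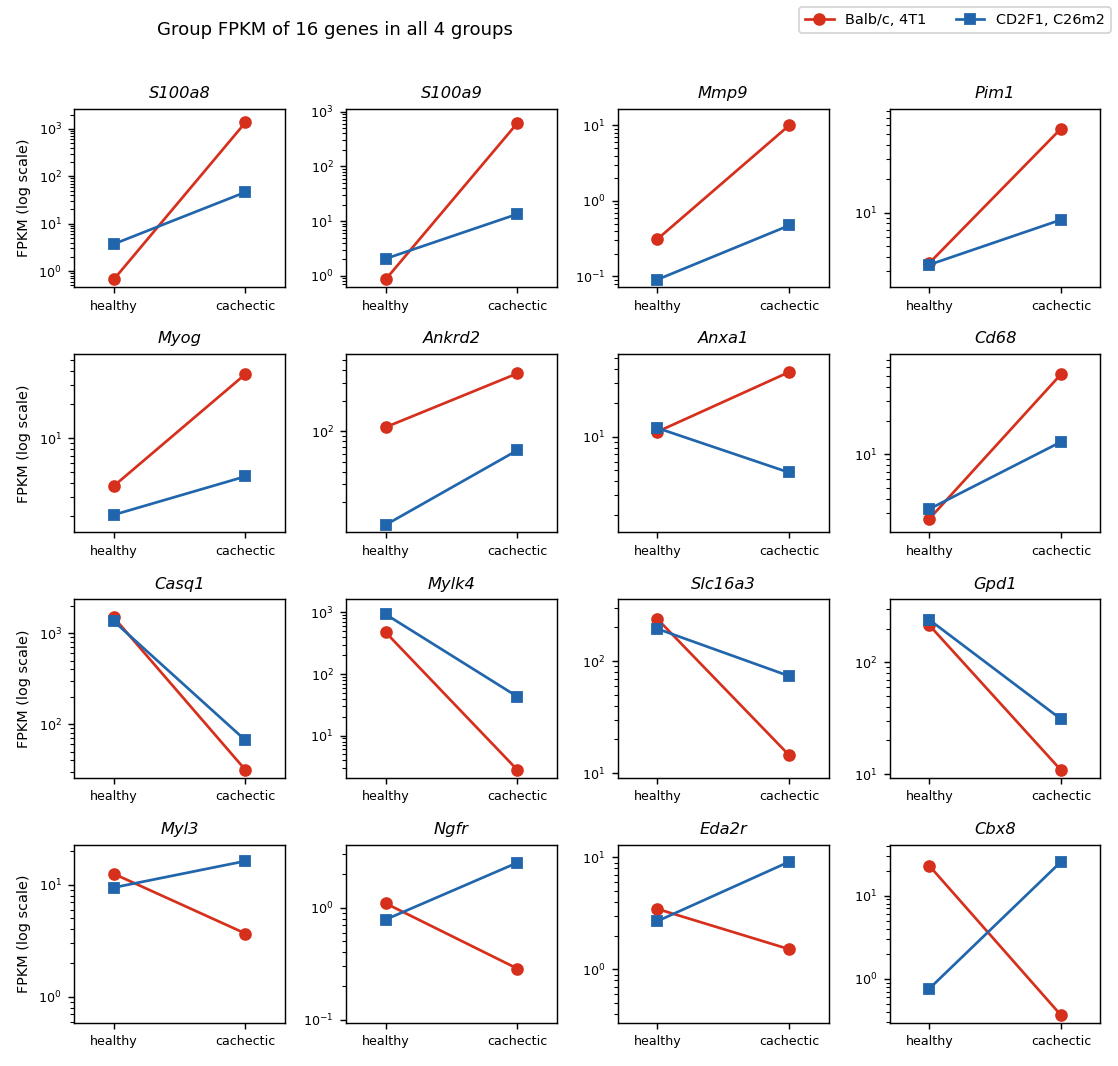
Group FPKM on a log scale of 16 genes in healthy and cachectic muscle, red circles for Balb/c with 4T1 and blue squares for CD2F1 with C26m2, 1 value per group with no error bar. S100a8, S100a9 and Cd68 cross between healthy and cachectic muscle, Casq1, Mylk4 and Gpd1 fall in both models and further in 4T1, and Myl3, Ngfr, Eda2r and Cbx8 go opposite ways.

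Genes of cytosolic ribosomal proteins, the protein part of the translation machinery, were higher in 4T1 muscle by a small and even amount. Of 57 listed genes, 35 could be compared, and all 35 had a centred ratio above 0, beside 50% of all compared genes. Their centred log2 ratios ran from 0.18 to 1.11 with a median of 0.51, and the median in healthy muscle was 0.03. All of them rose in both models, and all compared genes that rose in both had a median of 0.16. Members whose rise was not called in both models are left out, and the part of this limit in the ratios was not tested. The summed level of the 35 genes was 8941 FPKM in healthy Balb/c, 20269.9 in 4T1, 8196 in healthy CD2F1 and 13453 in C26m2 muscle.

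Rps27, a small-subunit protein and the most abundant of them, stood at 595, 2014, 519.7 and 1266 FPKM, a centred log2 ratio of 0.59. Rpl3, of the peptidyl transferase region of the large subunit, was the 1 member past 2-fold, at 70.4 against 31.0 FPKM (2.15-fold, widest interval 0.11 to 2.102). Of all compared genes, 10.9% were 2-fold apart. Rps28 was 1.78-fold higher, while Rpl30 and Rpl28, at the low end, were 1.13-fold and 1.19-fold higher. The widest interval held 0 for each member other than Rpl3. Another 3 members in the 4T1 table alone and 5 in the C26m2 table alone also rose.

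Ribosomal transcripts are short, and short transcripts as a class were somewhat higher in 4T1. Compared genes whose longest transcript was under 1 kb had a median centred log2 ratio of 0.29, and of 0.14 (n = 103) without the ribosomal list, whereas the classes from 1 kb upwards lay between -0.03 and 0.02. In healthy muscle the same class had a median of 0.05. Only 15 of the ribosomal genes fell in that class. The part of transcript length in the ribosomal difference was not tested.

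Ribosomal protein genes usually start transcription at a C inside a run of C and T, the terminal oligopyrimidine tract, through which mTOR signalling governs their translation. The 60 bases around the start site, 30 on each side, are shown for 3 members with such a run near the start, with the run in capitals (RefSeq, GRCm38.p6). These 3 were picked as the members with such a run that had the highest centred ratios. Rpl38 lies at chr11:114668550-114668609 on the plus strand, Rplp2 at chr7:141447621-141447680 on the plus strand and Rps27 at chr3:90213619-90213678 on the minus strand.
Rpl38: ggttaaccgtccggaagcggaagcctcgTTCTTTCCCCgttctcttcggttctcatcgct
Rplp2: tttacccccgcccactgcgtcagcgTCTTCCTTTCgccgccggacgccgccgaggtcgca
Rps27: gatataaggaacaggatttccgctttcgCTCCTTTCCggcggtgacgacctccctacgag
A run of 8 or more C and T that begins within 10 bases before to 20 bases after the start was found in 9 of the 33 promoters (27.3%) of the 26 compared ribosomal genes matched in the promoter table, and in 12.5% of all promoters. The other promoters of the list show no such run at the annotated start. Rplp2, of the ribosomal stalk, had 335, 930.3, 309.8 and 569 FPKM in healthy Balb/c, 4T1, healthy CD2F1 and C26m2 muscle, and Rpl38 had 280.1, 607, 255 and 367. Both were picked by their ratio of 4T1 over C26m2, so their higher level in 4T1 muscle is no further result.

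Glycolytic genes fell further in 4T1 muscle. Of 34 genes of glycolysis and glycogen use, 17 could be compared, of which 7 were 2-fold or more lower, beside 6.18% of all, and 0 were higher. The median centred log2 ratio was -0.90, with 15 members below 0, against 0.03 in healthy muscle. Those 15 fell in both models. Of all compared genes that fell in both, 14.4% were 2-fold lower in 4T1, with a median of -0.38. Slc16a3, the lactate exporter MCT4 of glycolytic fibres, had 238 FPKM in healthy Balb/c, 14.5 in 4T1, 195 in healthy CD2F1 and 73.7 in C26m2 muscle, and was 5.38-fold lower in 4T1. Gpd1, the cytosolic glycerol-3-phosphate dehydrogenase, had 215, 10.9, 241 and 31.1 FPKM and was 3.02-fold lower. Both healthy groups had similar levels of each gene, and the cachectic groups parted.

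Phkg1 and Phkb, subunits of the kinase that activates glycogen phosphorylase, stood at 22.96 against 56.1 and 57.6 against 126 FPKM in 4T1 and C26m2 muscle. The muscle isoforms Pgam2 and Pfkm, of phosphoglycerate mutase and phosphofructokinase, were at 199 against 444 and 419 against 805 FPKM. Eno3, muscle enolase, was at 663 against 1223 FPKM, just within 2-fold. Phkb was the 1 member whose widest interval left out 0 (-2.25 to -0.16). Gpi1 and Pfkfb3, an isomerase and a regulator of early glycolysis, rose in both models and lay above the median ratio, at 0.36 and 0.48. Slc2a1, the basal glucose transporter, and Pygl, a glycogen phosphorylase isoform, rose in the 4T1 table alone, to 26.7 and 5.92 FPKM. Of 4 members listed there alone 3 rose, and Fbp2 fell. Of 6 members listed for C26m2 alone 5 rose, among them Ugp2 from 388 to 1032 FPKM. Pygm, the muscle phosphorylase isoform, fell there to 1811 FPKM.

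Genes of fast-fibre contraction and calcium release followed the same order. Of 31 genes, 11 could be compared, 5 of them 2-fold or more lower in 4T1 and 0 higher, beside 6.18% and 4.75% of all compared genes, with a median of -0.82 against 0.12 in healthy muscle. All of them fell in both models. Of all compared genes that fell in both, 14.4% were 2-fold lower and 1.22% higher in 4T1, with a median of -0.38. Mylk4, a kinase of the myosin light chain kinase family, had 476, 2.79, 932 and 43.1 FPKM in healthy Balb/c, 4T1, healthy CD2F1 and C26m2 muscle. It was 16.3-fold lower in 4T1, with a widest interval of -8.20 to 0.15, and was already -1.06 on the centred log2 scale in healthy muscle. Casq1, the calcium store protein of the sarcoplasmic reticulum, had 1491, 31.3, 1355 and 66.4 FPKM, with healthy groups near each other.

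Stac3, an adaptor of the calcium release complex, stood at 25.8 against 67.4 FPKM. Pvalb, the calcium buffer parvalbumin of the fastest fibres, fell from 10602 to 1392 FPKM in Balb/c and from 11238 to 2829.7 FPKM in CD2F1 muscle, and was 2.15-fold lower in 4T1. The fast myosin light chains Myl1 and Mylpf lay within 2-fold, at 2499 against 4165 and 3285 against 4713 FPKM. No widest interval of this list left out 0. Tnnc2, Tpm1 and Actn3, structural genes of fast fibres, were listed for C26m2 alone, where each fell, and Mb and Des, 2 further muscle markers, rose there alone.

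Scaffold genes of the sarcomere and Z-disc were lower in 4T1 for 5 of 13 compared and higher for 1, beside 6.18% and 4.75% of all compared genes. Their median was -0.49, where healthy muscle had 0.47. Most of them fell in both models, and of all compared genes that did so 14.4% were 2-fold lower in 4T1. Lmod3, a leiomodin that builds thin filaments, had 54.0, 2.47, 38.0 and 9.67 FPKM and was 4.13-fold lower in 4T1. Capn3, the muscle calpain bound to titin, was 3.07-fold lower, and Smyd1, a methyltransferase needed for sarcomere assembly, stood at 25.2 against 59.7 FPKM. Xirp1, an actin-binding protein of stressed muscle, was 3.01-fold higher in 4T1 (widest interval 0.07 to 3.11), with a healthy ratio of 1.47 that lay on the same side. It was the 1 member of this list whose widest interval left out 0.

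Slow-fibre genes parted in both directions. Myl3, the ventricular and slow-fibre myosin light chain, had 12.5 FPKM in healthy Balb/c, 3.66 in 4T1, 9.43 in healthy CD2F1 and 16.3 in C26m2 muscle. It fell in 4T1 and rose in C26m2, and was 4.69-fold lower in 4T1 (widest interval -3.28 to -1.18). Myl2, the regulatory light chain of slow fibres, was 3.06-fold lower, at 2.44 against 7.08 FPKM. Ankrd2, a stretch-response protein of slow fibres, was 5.40-fold higher, but its levels of 109 and 12.0 FPKM in healthy Balb/c and CD2F1 muscle were further apart still, at a centred log2 ratio of 3.10. Sln, the calcium pump inhibitor sarcolipin, rose from 0.791 to 24.2 FPKM in the 4T1 table alone, beside the slow troponins Tnnt1 and Tnni1. Casq2 fell there, from 19.1 to 3.59 FPKM. Of 5 members in the C26m2 table alone 4 rose, among them Myoz2 from 45.9 to 94.2 FPKM, and Myom3 fell.

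Among the compared genes of muscle differentiation and denervation, Myog lay furthest above the median ratio. It encodes myogenin, a transcription factor that rises in denervated muscle, where it drives acetylcholine receptor and ubiquitin ligase genes. Levels were 3.74 FPKM in healthy Balb/c, 37.3 in 4T1, 2.07 in healthy CD2F1 and 4.55 in C26m2 muscle. It rose in both models and was 7.77-fold higher in 4T1 (widest interval 1.22 to 4.69; healthy ratio 0.77). Of the 9 denervation genes compared, Myog was the 1 past 2-fold, near the 10.9% of all compared genes, and the list's median was 0.06. Musk, the receptor kinase of the neuromuscular junction, and Runx1, a factor induced by denervation, were 1.95-fold and 1.90-fold higher, at 5.16 against 2.51 and 9.69 against 4.82 FPKM. Gdf5, a ligand that limits denervation atrophy, stood at 2.098 against 1.91 FPKM, and Gadd45a was lower in 4T1 by 1.51-fold. Other myogenic factors lay on the lower side: Myf6 (MRF4) was 2.65-fold lower in 4T1 (widest interval -2.58 to -0.24), and Myod1 stood at 2.31 against 3.01 FPKM.

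In 23 compared genes the models went opposite ways, 13 falling in 4T1 and rising in C26m2 and 10 the reverse. Cbx8, a Polycomb subunit, was the gene furthest below the median ratio, at 73.8-fold lower. It had 22.9, 0.365, 0.760 and 25.5 FPKM in healthy Balb/c, 4T1, healthy CD2F1 and C26m2 muscle. Healthy Balb/c muscle thus had about the level of C26m2 cachectic muscle, and the healthy ratio was 4.83, on the other side of 0. Ngfr, the p75 neurotrophin receptor, had 1.09, 0.286, 0.783 and 2.52 FPKM and was 9.32-fold lower in 4T1 (widest interval -4.53 to -1.91). Cbx8 and Ngfr passed the 1 FPKM limit through the C26m2 group alone. Eda2r, a receptor of the tumour necrosis factor family for ectodysplasin, went from 3.47 to 1.52 FPKM in Balb/c and from 2.70 to 9.15 in CD2F1 muscle.

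Mllt11 fell from 74.7 to 37.0 FPKM in 4T1 and rose from 54.8 to 180.5 in C26m2, and Adamts8, a secreted protease, fell from 6.96 to 0.527 and rose from 0.948 to 2.74. The widest intervals of Eda2r, Mllt11 and Adamts8 left out 0, and Adamts8 passed the 1 FPKM limit through the C26m2 group alone. In the reverse direction, Anxa1, the anti-inflammatory annexin of leukocytes, had 11.1, 37.7, 11.9 and 4.79 FPKM and was 7.47-fold higher in 4T1 (widest interval 1.42 to 4.38). Arhgdib, a small-GTPase regulator of blood cells, was 7.49-fold higher (1.78 to 4.03), and Fndc4 and Csdc2 were 8.65-fold and 7.43-fold higher at levels near or under 2 FPKM. Fndc4 and Csdc2 passed the 1 FPKM limit through the 4T1 group alone. Hp, haptoglobin, rose from 0.801 to 18.0 FPKM in 4T1 and fell from 7.79 to 2.98 in C26m2 muscle.

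Of the other genes at the top, Greb1 was 11.6-fold higher in 4T1, at 7.45 against 0.608 FPKM, and Baiap2l1, an actin regulator of membranes, 8.23-fold higher, at 26.3 against 3.03. Plagl1, a zinc finger factor, was 6.95-fold higher. All 3 were also higher in healthy Balb/c muscle, with healthy ratios of 2.43, 1.70 and 1.49. Akr1c14, a steroid dehydrogenase, fell in both models and less in 4T1, to 1.46 against 0.214 FPKM. Greb1, Plagl1 and Akr1c14 passed the 1 FPKM limit through the 4T1 group alone. At the lower end, Atp13a5 was 11.4-fold lower in 4T1, at 0.0950 against 1.02 FPKM, and Asb18, of a family of muscle ubiquitin ligase adaptors, 8.11-fold lower, at 0.309 against 2.37. Zmynd17 was 6.97-fold lower with a healthy ratio of -2.46 on the same side. Nt5c1a, the AMP nucleotidase of skeletal muscle, Akap6, an anchor of protein kinase A, and Rnf150 were 5.45-fold, 4.87-fold and 4.66-fold lower. Atp13a5, Asb18, Nt5c1a and Akap6 passed the 1 FPKM limit through the C26m2 group alone. The widest interval of Nt5c1a, -5.50 to 0.60, holds 0, and those of the other genes in this paragraph left it out.

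The core atrophy genes stood at similar levels in both models. Trim63 (MuRF1), a ubiquitin ligase of the sarcomere, had 91.6 FPKM in healthy Balb/c, 2179.6 in 4T1, 77.4 in healthy CD2F1 and 2054 in C26m2 muscle, a centred log2 ratio of 0.01. Fbxo32 (atrogin-1) reached 901 and 1006 FPKM, a ratio of -0.24. Their widest intervals, -3.17 to 3.19 and -3.04 to 2.57, are wide, so a difference of several fold in either direction would not be seen. Among 10 compared genes of ubiquitin ligation, Klhl33, a Kelch adaptor, was the 1 past 2-fold, at 8.44 against 23.1 FPKM (-2.77 to -0.29). Of all compared genes, 10.9% were 2-fold apart, a similar share.

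Proteasome genes leaned the other way from ribosomal genes. All 24 compared members lay within 2-fold, as did 89.1% of all compared genes. Of these members 21 lay below the median ratio, beside 50% of all, with a median of -0.36 against 0.07 in healthy muscle. Psmd8, a lid subunit, was lowest at 243 against 386 FPKM, and Psmd7 highest at 201 against 161. The widest interval held 0 for each. Another 12 members were listed for C26m2 alone, of which 11 rose.

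Autophagy and lysosome genes had a median of 0.09 over 21 compared, and 1 was higher and 1 lower by 2-fold, beside 10.9% of all compared genes 2-fold apart. Gabarapl1, which coats autophagosomes, was 2.05-fold higher in 4T1, close to the 2-fold limit, at 631 against 291 FPKM, and Ulk2, an initiating kinase, 2.104-fold lower, at 9.57 against 19.1. Targets of FoxO factors and glucocorticoids had a median of 0.35, against 0.16 for all compared genes that rose in both models. Most of these targets did so, and 19 of 23 lay above 0, beside 50% of all compared genes. Irs2, the insulin receptor substrate, was the 1 past 2-fold, at 50.4 against 22.1 FPKM, beside 10.9% of all compared genes past it. Cdkn1a (p21) stood at 397 against 212, with a healthy ratio of 2.06 on the same side. Mt1 and Mt2, the zinc-binding metallothioneins, were at 2774 against 1507 and 2138 against 1284 FPKM, within 2-fold, and the zinc importer Slc39a14 at 145 against 198.

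**Figure D4:**
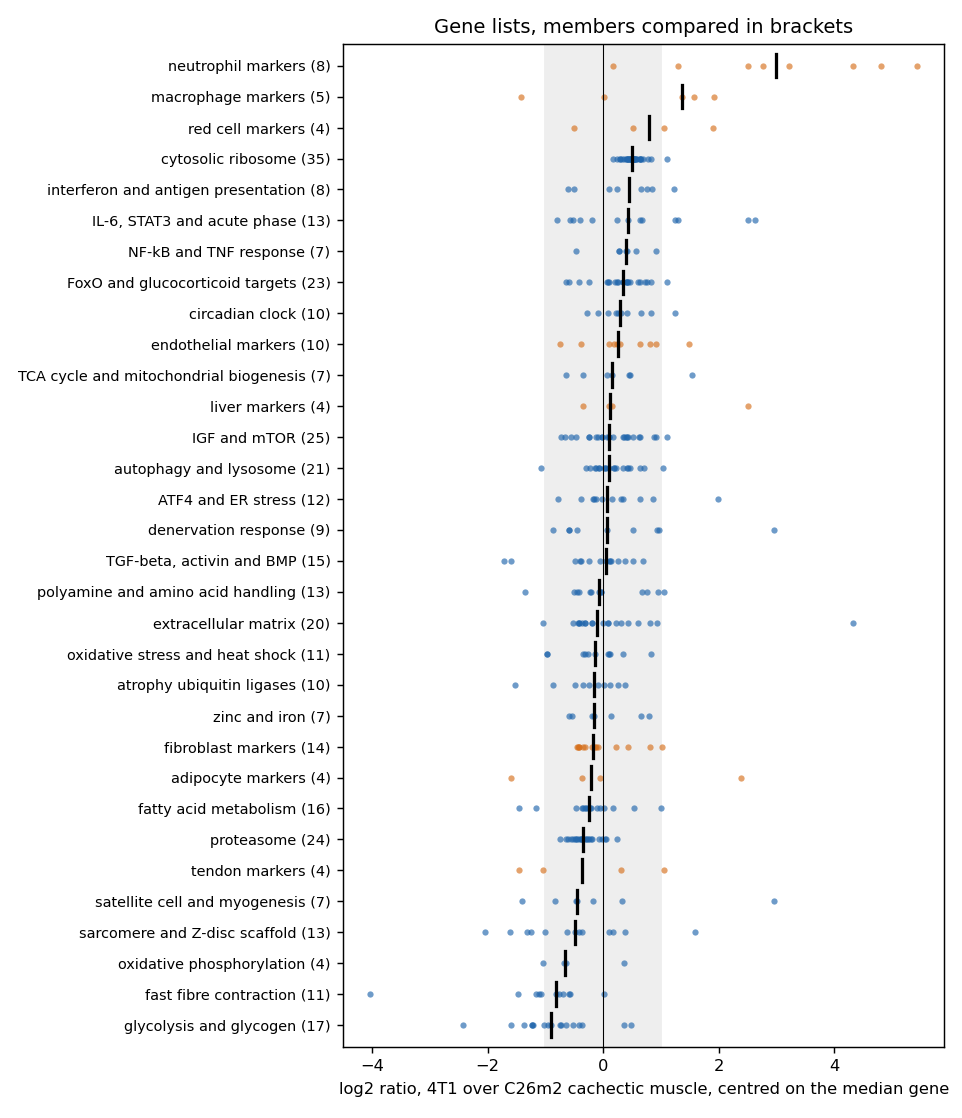
Centred log2 ratio of 4T1 over C26m2 cachectic muscle for the compared members of each gene list with 4 or more (points, blue for gene groups and orange for cell type markers; number in brackets), with the list median as a black bar and the 2-fold band in grey. Neutrophil markers have the highest median, 2.99, and glycolysis the lowest, -0.90; the ribosomal and proteasome lists are the narrowest of the larger ones.

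Genes of interleukin-6 signalling and the acute phase included 4 members of 13 that were 2-fold higher in 4T1 and 0 lower, beside 4.75% and 6.18% of all compared genes. Pim1, a kinase induced through STAT3 and STAT5, had 3.54, 56.2, 3.42 and 8.63 FPKM in healthy Balb/c, 4T1, healthy CD2F1 and C26m2 muscle and was 6.17-fold higher in 4T1 (widest interval 0.59 to 4.66). Healthy muscle of both strains had nearly the same level of Pim1. Junb, an AP-1 factor, was at 64.5 against 25.9 FPKM, and the others were Lcn2 and Hp, which are also on the neutrophil list. Stat3 itself was near the median, at -0.20, and the receptor Il6ra and the antiprotease Serpina3n were lower in 4T1, at 41.0 against 67.6 and 41.9 against 59.5 FPKM. All 3 members listed in 4T1 alone rose, among them Socs3, the feedback inhibitor of STAT3, to 5.22 FPKM. Of 8 members listed in C26m2 alone 2 rose, Il6st and Serpina3m. The others fell, among them C3 from 19.2 to 4.31 FPKM and Fgb from 4.34 to 0.577.

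All compared NF-kB genes lay within 2-fold, as did 89.1% of all compared genes, with Nfkb2 highest at 1.89-fold. Of the 7 compared, 6 lay above 0, beside 50% of all compared genes. The list's median was 0.40, against 0.16 for all compared genes that rose in both models, as all 7 did. Inhbb, a subunit of activin B, was 3.04-fold lower in 4T1, with a widest interval, -4.06 to 0.86, that holds 0. It had 0.241, 1.28, 0.165 and 3.69 FPKM in healthy Balb/c, 4T1, healthy CD2F1 and C26m2 muscle, and rose in each model and further in C26m2. Of 15 compared genes of TGF-beta, activin and BMP signalling, 13 lay within 2-fold, near the 89.1% of all compared genes.

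Most matrix genes that were far apart in healthy muscle stood closer in cachectic muscle, as did most compared genes of any kind. Of 125 compared genes 2-fold apart in healthy muscle, 38 were so the same way in cachectic muscle. Another 7 higher and 4 lower genes were so the opposite way. The extracellular matrix list had a median of 0.83 in healthy and -0.10 in cachectic muscle over 20 genes. Col1a1, a chain of type I collagen, had 105 and 40.1 FPKM in healthy Balb/c and CD2F1 muscle and 1.01 and 1.28 in 4T1 and C26m2 cachectic muscle. Col3a1 fell from 65.8 to 1.86 FPKM and from 20.4 to 2.38. In both collagens the healthy groups differed more than the cachectic ones, whose levels lay near the 1 FPKM limit. Of the 5 members 2-fold apart in healthy muscle, the collagens Col1a1, Col3a1, Col5a2 and Col15a1 lay within 2-fold in cachectic muscle, and Mmp9, described with the neutrophil genes, was further apart there.

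Mitochondrial genes were mostly not open to comparison: 4 of 71 respiratory chain genes were in both tables. Ndufs1, a core subunit of complex I, was 2.05-fold lower in 4T1, at 82.8 against 161 FPKM (widest interval -1.98 to -0.09). Ppargc1a, the coactivator PGC-1alpha of mitochondrial biogenesis, had 7.24, 84.1, 7.74 and 27.4 FPKM and was 2.91-fold higher in 4T1. It rose in both models from similar healthy levels, and its widest interval, -0.38 to 3.46, holds 0. Fatty acid genes had a median of -0.25, and all 16 compared rose in both models. Dgat2, a triglyceride synthase, was 2.75-fold lower in 4T1, with a healthy ratio of -1.13 on the same side. The uncoupling protein gene Ucp2 was just short of 2-fold on the higher side, at 2.00-fold. Pdk4, the kinase that shuts pyruvate out of oxidation, was listed for C26m2 alone, where it rose from 89.7 to 1819.9 FPKM.

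Single members of other groups also passed 2-fold. Atf3, a stress factor downstream of ATF4, was 3.97-fold higher in 4T1, at 28.5 against 6.80 FPKM, with a healthy ratio of 1.39 on the same side. Its widest interval, -0.21 to 4.19, holds 0, and Atf4 stood at -0.03. Nfil3, a repressor tied to the circadian clock, was 2.37-fold higher, at 97.6 against 39.0 FPKM. Of 10 clock genes compared 8 lay above 0, beside 50% of all. Their median was 0.29, against 0.16 for all compared genes that rose in both models, as most of the 10 did. Sat1, which acetylates polyamines for export, was 2.08-fold higher, and Amd1, which makes decarboxylated S-adenosylmethionine for polyamine synthesis, was 2.56-fold lower, with a healthy ratio of -2.10. Genes of IGF and mTOR signalling had a median of 0.11 over 25 compared, with Irs2 the 1 past 2-fold, beside 10.9% of all. All 8 compared genes of interferon response and antigen presentation fell in both models. H2-Aa, a class II chain, was 2.34-fold higher in 4T1, at 1.27 against 0.515 FPKM, and passed the 1 FPKM limit through the 4T1 group alone. Of 6 members in the 4T1 table alone, the class I genes H2-Q4, H2-Q6 and H2-Q7, near-identical copies, rose, H2-Q4 from 4.15 to 10.4 FPKM, and 3 fell. The oxidative stress and heat shock list had 11 of 11 within 2-fold, beside 89.1% of all, with Gsr, glutathione reductase, lowest at -0.97.

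Among markers of other cells, Plvap, a protein of fenestrated endothelium, was 2.80-fold higher in 4T1 (widest interval 0.30 to 2.67). Of 10 endothelial genes compared 9 lay within 2-fold, near the 89.1% of all, among them Pecam1 at 52.0 against 43.3 FPKM. Fibroblast markers had a median of -0.17 and all 14 fell in both models. Cidea, a lipid droplet protein, was 5.21-fold higher, at 8.44 against 1.53 FPKM, with a healthy ratio of 1.26 on the same side. Its widest interval, -0.02 to 4.78, holds 0, and the fat marker Car3 stood at -0.36. Fmod and Thbs4, of tendon, were 2.75-fold and 2.05-fold lower and Cilp, of cartilage and tendon, 2.06-fold higher. Cilp had a healthy ratio of 1.88 on the same side, and the widest interval of each of these genes holds 0. Cilp passed the 1 FPKM limit through the 4T1 group alone, and Fmod through the C26m2 group alone. Ighm, the heavy chain of IgM, fell in both models to 1.20 and 2.95 FPKM, whereas the leukocyte genes Coro1a, Cd52 and Ptprc were listed in 4T1 alone, where they rose to 16.7, 11.5 and 2.63 FPKM. Lgals4, the 1 epithelial marker compared, stood at 20.8 and 17.1 FPKM, and Pcna and Rrm1, of proliferation, lay within 2-fold.

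Liver transcripts were present in healthy CD2F1 muscle. Of 55 liver markers, 32 were listed for C26m2 alone and none of these rose. Alb, albumin, fell from 79.5 to 8.11 FPKM, and the median healthy ratio of the 4 compared was -3.37. Hp belongs to this list as well, so its fall in C26m2 moved with the liver transcripts, whose part in its ratio was not tested.

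Of the 100 compared genes with the highest mean level over the cachectic groups, 10 were 2-fold apart, 7 higher and 3 lower in 4T1, close to the 10.9% of all compared genes that were 2-fold apart. Of the 684 least abundant compared genes 13.9% were 2-fold apart, and of the 684 most abundant 9.06%. Eif1 and Ubb, a translation initiation factor and a polyubiquitin, stood at 0.38 and 0.26 on the centred log2 scale, and Got1, the cytosolic aspartate aminotransferase, at 0.67. Genes at the 2-fold limit were Nrgn, Gna13 and H47, which lay just past it on the higher side at centred ratios from 1.002 to 1.01, with Papd7, Ucp2 and Trp53inp1 just short of it. On the lower side Hrsp12, Ldb3 and 6030419C18Rik lay just past it at 3.02 against 5.72, 78.8 against 149.7 and 2.23 against 4.23 FPKM, and Adig, Tha1 and Srpk3 just short of it.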

How the data were processed

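Poly-A libraries of tibialis anterior muscle were prepared with a TruSeq kit, per the labels' protocols. Per the submitters' processing notes, reads were handled with TopHat2 2.1.0 and Cufflinks 2.2.1, Cuffdiff is named beside them, and the build was NCBIM37. For annotation release, strand use and normalization the methods were not given in the sources used here, so overlapping and antisense genes cannot be told apart. The authors deposited FPKM values, 1 per group, per the file headers. The log2 fold changes, p-values and q-values are the authors' own, per the file headers, and every listed gene had a q-value of 0.05 or less, so a gene absent from a table has no value here. Sequencing depth is unknown. Listed genes numbered 4334 for 4T1 and 4832 for C26m2. Of 3138 in both, 403 were under 1 FPKM in both cachectic groups and were left out.

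Tables were joined on gene identifier, and the log2 ratio was centred on its median with no pseudocount. The standard error behind the widest interval is the absolute deposited log2 fold change over the normal quantile of its p-value, combined over both models, and rests on a normal approximation. At the smallest p-value, 5e-05, it equals 24.7% of the log2 fold change. The step was tested on simulated data in which all genes had the same error and the p-values were made from it. That check cannot show how well the interval holds for the authors' p-values. Counts, medians and intervals carry no test. Named genes are the 15 largest ratios in each direction, the 10 most abundant, up to 2 at each end of each of 38 lists, and Trim63, Fbxo32, Slc39a14, Mt1 and Mt2. Further list members are named to describe a list. A few genes that this rule names are not reported here. The members and lists were chosen with earlier results of these data known. List symbols were matched by symbol (753 entries) or Ensembl identifier (7), and 543 were in neither table. Promoters and transcript lengths are of GRCm38.p6, with promoters matched by symbol and lengths by Ensembl gene identifier. Alternatives were other centrings, limits on FPKM, pseudocounts, a q-value limit of 0.01 and a join on symbol. Computation used Python 3.11.15, numpy 2.4.6, pandas 2.3.3, scipy 1.17.1 and matplotlib 3.10.9.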

Additional observations from a re-analysis of the deposited data

How the results depend on the processing

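Of 60 counts recomputed under 10 alternative settings, 50 stayed within 1.5 times the reported count, and no gene or list median that was past its limit changed sign. A pseudocount of 1 FPKM gave 97 genes lower by 2-fold (169 reported), 21 higher and 8 lower by 4-fold (33 and 21), 64 of the 2-fold genes beyond their widest interval (109) and 14 already apart in healthy muscle (38). With q of 0.01 or less in both tables, 17 genes were higher by 4-fold, 70 lay beyond the interval and 25 were apart in healthy muscle. With 1 FPKM in both cachectic groups 13 were lower by 4-fold, and with 5 FPKM in at least 1 group 25 were apart in healthy muscle. The pseudocount shrinks ratios of low genes by construction, and the other settings leave fewer genes. Of 70 named genes past 2-fold, the pseudocount of 1 took 11 below it (Akr1c14, Atp13a5, Cbr2, Cilp, Fmod, H2-Aa, Ighm, Nt5c1a, Pi16, Thbs4 and Ulk2), leaving out the centring took Ndufs1, Thbs4 and Ulk2, a pseudocount of 0.1 FPKM took Cilp and Pi16, and the limit of 5 FPKM took Gabarapl1. The medians of 5 lists changed sign under 1 setting each: polyamine, tendon, interferon, TGF-beta and oxidative stress. The share of 2-fold genes that were higher was 43.5%, and 51.5% without centring. No paired analysis was possible because the tables hold 1 value per group and no replicate numbers, and leaving out a library could not be done for the same reason. Depth is unknown, so no counting error can be given. The comparison covers genes called in both models, which leaves out those that moved in 1 alone.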

Other observations

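Of the 10 abundant genes that were 2-fold apart, 4 belong to none of the lists and were picked after their values were seen. Mustn1, a small nuclear protein of the musculoskeletal system, had 98.0 FPKM in healthy Balb/c, 813 in 4T1, 28.0 in healthy CD2F1 and 155 in C26m2 muscle, and was 4.96-fold higher in 4T1, with a healthy ratio of 1.72 on the same side. Ifrd1, a transcriptional coregulator of muscle repair, had 76.3, 1060.3, 53.9 and 291 FPKM and was 3.45-fold higher. Tmbim1, a membrane protein of the Bax inhibitor family, stood at 556 against 227 FPKM, and Abra, an actin-binding activator of serum response factor signalling, at 449.9 against 182. All 4 rose in both models.

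Some abundant genes were listed for 1 model alone and have no value for the other. In 4T1 these were Fhl1, a LIM protein of muscle, which fell from 1552 to 496 FPKM, the small heat shock protein gene Hspb6, which fell to 459, and the kinase Sgk1, which rose to 352. For C26m2 they were the mitochondrial ribosomal RNAs mt-Rnr1 and mt-Rnr2, which rose to 3049 and 2684 FPKM, and the stretch-response gene Ankrd23, which rose to 1314. Whether the other model moved was not tested.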
